A study of Mus musculus with 2 samples.

Results

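The contractile machinery of muscle was followed through 39 genes in the uterus of Mettl14 f/f and Mettl14 d/d mice on gestational day 4. The genes were taken by symbol from a list of smooth muscle and striated muscle genes, chosen with earlier results of these data known. All 39 were found among the 55363 gene symbols of the deposited tables. Of these, 34 belong to smooth muscle or to several muscle types and 5 to skeletal muscle. RNA came from whole uterus, a mix of cell types, of females aged 6 to 8 weeks that had been mated with fertile males, with the day of the plug taken as day 1. One genotype carries Mettl14 f/f and the other Mettl14 d/d, which in the usual notation stand for floxed and deleted alleles of the gene for an RNA methyltransferase subunit. The sources used here do not give the promoter that drove the deletion, the cells it reached or whether animals were pooled. Each genotype is represented by a single library, 1 against 1, so values carry no replicate error and nothing was tested; higher and lower compare these 2 libraries. Levels are FPKM, fragments scaled by transcript length and by mapped fragments of the library, which allows levels of different genes to be compared per length.

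Smooth muscle contracts when calcium, bound to calmodulin, activates myosin light chain kinase. The kinase phosphorylates the regulatory light chain of myosin, which then pulls on thin filaments of actin and tropomyosin. Myosin phosphatase reverses this step, and cyclic GMP acting through its protein kinase promotes relaxation. The force is carried by dense bodies, by intermediate filaments of desmin and by adhesion plaques at the membrane, which take the place of the Z discs and costameres of striated muscle. Genes of this machinery are switched on by serum response factor together with its partner myocardin. In the uterus it makes up the myometrium and the walls of vessels, and the oxytocin receptor is best known there for its part in labour.

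Mettl14 itself, the targeted gene, measured 13.6 FPKM in f/f against 3.21 FPKM in d/d. The FPKM values summed to 1281240 (f/f) and 1285320 (d/d), and the steps between low values corresponded to roughly 17750000 and 20850000 fragments. The 8 smooth muscle markers (Acta2, Myh11, Cnn1, Tagln, Des, Myocd, Smtn and Actg2) were all present, from 8.74 to 1515 FPKM in f/f and from 12.1 to 1130 FPKM in d/d. The skeletal muscle markers went against that part of the list's name. The heavy chains of skeletal myosin, Myh1, Myh2 and Myh4, were listed at 0 in both libraries. The other skeletal markers Tnnc2, Myl1, Pvalb, Actn3 and Casq1 reached at most 2.82 FPKM.

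Most of the contractile genes were moderately lower in the d/d library, and a few differed strongly. Of the 39 genes, 12 were at least 2-fold lower, 1 was at least 2-fold higher and 26 were neither. Log2 ratios and the 2-fold line use log2(FPKM + 1) throughout, whereas a fold printed beside a gene, and a proportion between genes, is a plain quotient of FPKM and is larger for low genes. Among the 16263 genes at 1 FPKM or more in either library, 8.28% were at least 2-fold lower and 10.2% at least 2-fold higher. The median log2 ratio, d/d over f/f, was -0.49 for the 39 genes and -0.01 for all genes. A ratio below 0 was found for 34 of the 39, against 50.8% of all genes. With 1.5-fold in place of 2-fold, 18 were lower and 2 were higher, against 17.8% and 18.8% of all genes. All 39 reached 1 FPKM in f/f, and Casq2 and Ckm fell below it in d/d. Casq2 and Ckm, both among the 12 lower genes, thus passed the filter through f/f alone, which fixed their direction. Summed FPKM of the list was 11018 for f/f against 8407 for d/d, which was 0.860% and 0.654% of the summed FPKM of all genes, not of the fragments. In whole tissue, fewer muscle cells and less RNA per muscle cell cannot be told apart.

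**Figure D1:**
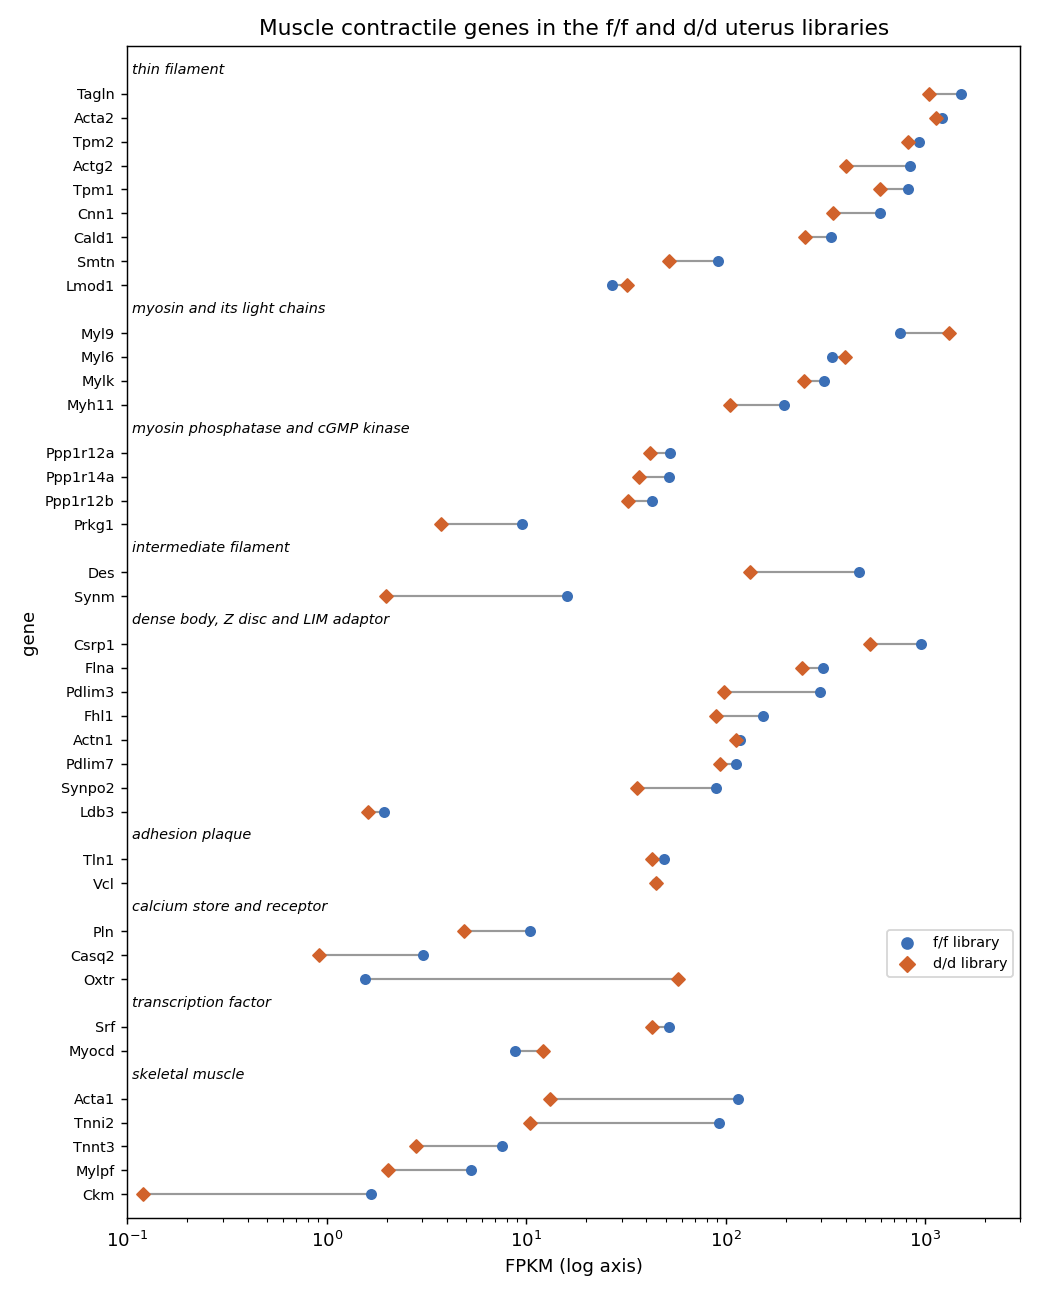
FPKM on a log axis for each of the 39 genes, grouped by role, with a circle for the f/f library and a diamond for the d/d library joined by a line; there is 1 library per genotype and so no error bar. The diamonds lie to the left of the circles for most genes, by most for Synm, Acta1, Tnni2 and Ckm, and far to the right for Oxtr, from 1.55 to 57.4 FPKM.

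The thin filament genes include many of the abundant transcripts of the list, and 8 of 9 did not pass 2-fold. Among all genes, 8.28% were at least 2-fold lower and 10.2% at least 2-fold higher. Tagln, which encodes the actin-binding protein transgelin, was 1515 FPKM in f/f and 1042 FPKM in d/d, a 1.45-fold lower level. Acta2, the smooth muscle alpha-actin gene (chr19:34241090-34255590, minus strand), was 1211 FPKM in f/f and 1130 FPKM in d/d, nearly level between the libraries. Actg2, the gamma-actin of visceral smooth muscle (chr6:83512905-83536265, minus strand), was 837 FPKM in f/f and 401 FPKM in d/d. It was the one thin filament gene past 2-fold, at 2.09-fold lower, and with ratios centred on reference genes it fell just short (-0.97). Other thin filament genes kept more of their level. The tropomyosins lie along actin and govern access of myosin to it. Tpm2 stayed close, at 934 FPKM in f/f and 815 FPKM in d/d, and Tpm1 was 819 and 593 FPKM, 1.38-fold lower. Cnn1, the gene of calponin, an actin-binding inhibitor of myosin's ATPase, was 596 FPKM in f/f and 345 FPKM in d/d, 1.73-fold lower. Cald1, the gene of caldesmon with a similar role, was 336 FPKM in f/f and 250 FPKM in d/d, a smaller difference than that of Cnn1. Smtn, the smoothelin gene of contractile smooth muscle cells, was 91.2 FPKM in f/f and 51.6 FPKM in d/d, 1.77-fold lower. Lmod1, a leiomodin that starts new actin filaments, was the single thin filament gene with a ratio above 0, at 27.0 FPKM in f/f and 32.0 FPKM in d/d.

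The 2 smooth muscle actins therefore stood in different proportion. Actg2 stood at 69.1% of the Acta2 level in f/f but at 35.4% of it in d/d. Of the summed FPKM of the muscle actin genes Acta2, Actg2, Acta1 and Actc1, Acta2 made up 56.0% in f/f against 73.2% in d/d, and Actg2 38.7% against 25.9%. Acta1, the skeletal alpha-actin, made up 5.32% in f/f and 0.852% in d/d. Such a within-library proportion does not depend on scaling between libraries, and it does not say which of the genes differed. Because actin genes are near copies, their coding sequences were compared. The coding sequence of Acta2 is 1134 bases, that of Acta1 1134 and that of Actg2 1131. Aligned base by base, Acta2 was 84.2% identical to Actg2 and 85.4% identical to Acta1, and the longest stretch without a difference was 29 bases in each pair.

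The first 60 coding bases are shown because they are where these proteins differ most, and they let a reader see how fragments of one gene are told from another. Sequences run 5′ to 3′ from the ATG, from GENCODE M21 transcripts on GRCm38, and capitals mark bases that differ from Acta2 in a global alignment, 9 of them in Actg2 and 17 in Acta1.
Acta2: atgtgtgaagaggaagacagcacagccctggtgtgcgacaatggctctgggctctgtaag
Actg2: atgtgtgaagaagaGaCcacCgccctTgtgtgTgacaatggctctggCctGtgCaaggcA
Acta1: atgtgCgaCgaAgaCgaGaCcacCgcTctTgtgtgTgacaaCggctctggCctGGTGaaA
The Actg2 line is shifted by a 3-base gap in the alignment, and its 9 differences fall in 2 groups with a shared stretch between them. Over whole coding transcripts, the share of 50-base stretches found in any other annotated gene was 0.326% for Acta2, 2.02% for Acta1 and 0% for Actg2. How the authors' estimate treated fragments matching more than 1 gene is not stated.

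Myosin genes moved apart from one another. Myh11, the heavy chain of smooth muscle myosin (chr16:14194535-14291372, minus strand), was 196 FPKM in f/f and 105 FPKM in d/d, a 1.86-fold lower level that did not reach 2-fold. Myl9, the regulatory light chain that is phosphorylated to start contraction (chr2:156775420-156781658, plus strand), was 747 FPKM in f/f and 1321 FPKM in d/d, a 1.77-fold higher level. It ranked 7th of the 39 genes in f/f and 1st in d/d. Myl6, the essential light chain shared with non-muscle myosin, was 340 FPKM in f/f and 397 FPKM in d/d. Mylk, the light chain kinase, was 311 FPKM in f/f and 247 FPKM in d/d. Myl9 FPKM was thus 3.81 times Myh11 FPKM in f/f and 12.6 times in d/d, since these genes had ratios of opposite sign. For Myl6, 16.7% of the 50-base stretches recur in other genes, its pseudogenes among them, and its value is less certain.

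The regulators of light chain dephosphorylation all had ratios below 0, and 3 of 4 did not pass 2-fold. Among all genes, 50.8% had ratios below 0 and 8.28% were at least 2-fold lower. Ppp1r12a, the targeting subunit of myosin phosphatase, was 52.6 FPKM in f/f and 41.6 FPKM in d/d. Its relative Ppp1r12b was 42.5 and 32.4 FPKM. The log2 ratios of Ppp1r12a (-0.33) and Ppp1r12b (-0.38) lay between the quartiles of all genes, -0.41 and 0.41. Ppp1r14a, the phosphatase inhibitor CPI-17, was 51.8 FPKM in f/f and 36.7 FPKM in d/d. Prkg1, the cyclic GMP-dependent kinase of the relaxing pathway, was the one past 2-fold, at 9.48 FPKM in f/f and 3.73 FPKM in d/d, 2.54-fold lower. Its call ended with a pseudocount of 5 (-0.73).

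Intermediate filament genes were the most strongly lower of the smooth muscle roles. Des, the desmin gene (chr1:75360329-75368579, plus strand), was 465 FPKM in f/f and 131 FPKM in d/d, 3.54-fold lower. Synm, whose product synemin joins desmin filaments to the membrane and to dense bodies (chr7:67730160-67759742, minus strand), was 16.1 FPKM in f/f and 1.97 FPKM in d/d, 8.15-fold lower by plain FPKM. Its log2 ratio of -2.52 on the FPKM + 1 scale became -1.60 with a pseudocount of 5. At or below -2.52 lay 187 of the 16263 genes. Des stood at 38.4% of the Acta2 level in f/f but at 11.6% of it in d/d. Vim, the vimentin filament gene of stroma and vessels, was also lower, at 1081 FPKM in f/f and 328 FPKM in d/d.

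The genes of dense bodies, Z discs and their LIM-domain adaptors all had ratios below 0, from -1.60 to -0.06, and 2 of 8 passed 2-fold. Among all genes, 50.8% had ratios below 0 and 8.28% were at least 2-fold lower. Centred on reference genes, Actn1 changed sign (0.02), as did Vcl of the adhesion plaque (0.09). Pdlim3, an alpha-actinin-binding PDZ-LIM protein, was 297 FPKM in f/f and 97.5 FPKM in d/d, 3.05-fold lower. Its relative Pdlim7 was 113 FPKM in f/f and 93.9 FPKM in d/d, much nearer to level. Synpo2, the actin-bundling protein myopodin, was 89.6 FPKM in f/f and 35.9 FPKM in d/d, 2.49-fold lower. Next followed 2 LIM-domain genes short of 2-fold. Csrp1 was 949 FPKM in f/f and 525 FPKM in d/d, 1.81-fold lower, and Fhl1 was 153 and 89.0 FPKM, 1.72-fold lower. The large actin cross-linkers differed less. Flna, filamin A, was 308 FPKM in f/f and 241 FPKM in d/d, and Actn1, alpha-actinin, was 117 and 112 FPKM. Ldb3, the Z disc protein of striated muscle also called ZASP, was low in both, at 1.93 FPKM in f/f and 1.61 FPKM in d/d. The adhesion plaque genes were level, with Vcl, vinculin, at 44.7 FPKM in both libraries and Tln1, talin, at 48.7 and 42.7 FPKM. Actn1, Flna, Vcl and Tln1 are expressed by most cell types.

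**Figure D2:**
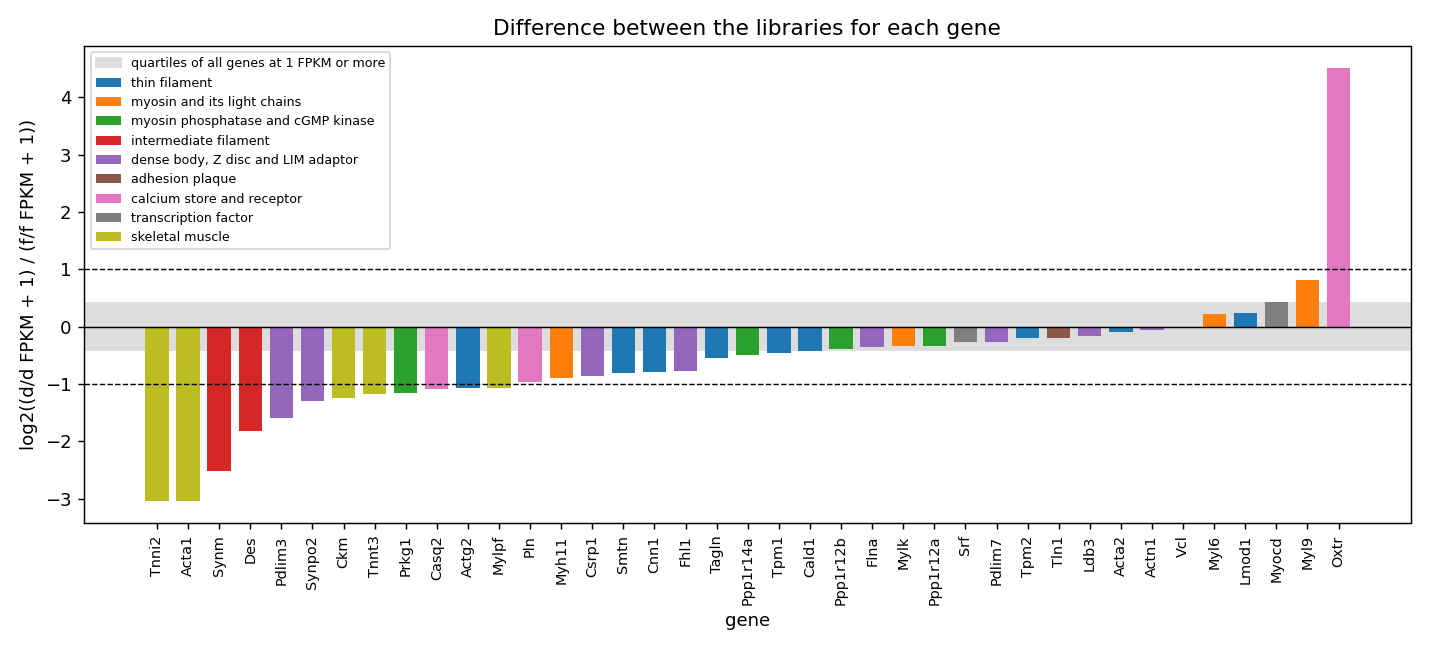
Log2 ratio of (FPKM + 1), d/d over f/f, for each of the 39 genes in ascending order, coloured by role, with dashed lines at 2-fold and a grey band between the quartiles of all 16263 genes. Bars run from -3.04 for Tnni2 to 4.52 for Oxtr, and 34 of the 39 lie below 0.

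Within the list, the calcium store genes Casq2 and Pln and the oxytocin receptor gene went in different directions. Oxtr, the oxytocin receptor (chr6:112473683-112489943, minus strand), was 1.55 FPKM in f/f and 57.4 FPKM in d/d, a 37.1-fold higher level by plain FPKM. On the FPKM + 1 scale its log2 ratio was 4.52, at or above which lay 46 of the 16263 genes, and the ratio ran from 3.25 to 5.13 with pseudocounts of 5 and 0.1. It was lowest of the 39 in f/f and 19th in d/d. Over its longest coding transcript these levels correspond to roughly 129 and 5627 fragments, respectively. Casq2, the calcium-binding calsequestrin of the store, was 3.05 FPKM in f/f and 0.913 FPKM in d/d, and Pln, phospholamban, which restrains the calcium pump, was 10.4 and 4.86 FPKM. On the FPKM + 1 scale Casq2 passed 2-fold, at -1.08, and Pln, at -0.96, did not, although Pln was 2.14-fold lower by plain FPKM. Both sat near the line: Casq2 missed it under 3 settings (-0.44 with a pseudocount of 5) and Pln passed it under 3 (-1.05 with upper quartile scaling). For Pln, 56.2% of 50-base stretches lie in other annotated genes, Cep85l and Gm47644 on the opposite strand, and the strand setting of the library is not stated. The same holds for Tagln, where 47.6% overlap Pcsk7 and a gene model, and for Vcl, where 38.2% overlap Ap3m1. Beside Oxtr, all 5 epithelial markers (Epcam, Cdh1, Krt8, Krt18 and Krt19) were higher in d/d, at a summed 215 FPKM in f/f and 1225 FPKM in d/d. Of these, 4 were past 2-fold, against 10.2% of all genes. Of 8 leukocyte genes, 4 were also at least 2-fold higher and 1 was lower. All 4 fat-cell genes at 1 FPKM or more were higher, 3 of them reaching 1 FPKM in d/d alone. The oxytocin receptor can be made in uterine epithelium as well as in muscle. The part of epithelium or of the other cell types in its level was not tested.

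The transcription factors of the programme were within 1.5-fold. Srf, the serum response factor gene, was 51.7 FPKM in f/f and 42.7 FPKM in d/d. Myocd, which encodes its muscle partner myocardin, was 8.74 FPKM in f/f and 12.1 FPKM in d/d, 1.39-fold higher. Srf binds the CArG box, 10 bases made of CC, 6 letters that are each A or T, and GG, which reads alike on both strands. The RefSeq start-site windows on GRCm38.p6, from 250 bases before to 50 after each start, held 33 of the 39 genes. Actg2, Myh11, Tagln, Myocd, Tnni2 and Tnnt3 have no entry there. An exact CArG box stood in the window of 7 of the 33 (21.2%), against 1.81% of the 27025 genes with a window. A box with 1 of the 6 letters replaced by C or G, called CArG-like here, was in the windows of 7 of the 33 (21.2%), against 9.69% of all genes. Muscle genes are well known to carry this box, and a match describes letters, not binding.

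The exact boxes and those of Acta2 are shown because they sit beside genes whose levels ran from strongly lower to higher. Each is given 5′ to 3′ on the strand of its gene, with the box in capitals and 10 bases on either side.
Myl9, chr2:156775293-156775322: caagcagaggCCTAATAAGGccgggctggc
Myl6, chr10:128493040-128493069: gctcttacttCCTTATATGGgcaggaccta
Vcl, chr14:20929161-20929190: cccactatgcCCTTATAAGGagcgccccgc
Ldb3, chr14:34588697-34588726: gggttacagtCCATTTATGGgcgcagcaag
Srf, chr17:46556225-46556254: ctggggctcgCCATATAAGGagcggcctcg
Srf, chr17:46556205-46556234: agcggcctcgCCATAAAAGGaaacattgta
Fhl1, chrX:56779571-56779600: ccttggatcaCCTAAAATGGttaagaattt
Acta1, chr8:123894829-123894858: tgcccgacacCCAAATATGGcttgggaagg
Acta2 CArG-like, chr19:34255438-34255467: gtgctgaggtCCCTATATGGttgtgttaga
Acta2 CArG-like, chr19:34255388-34255417: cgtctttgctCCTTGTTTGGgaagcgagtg
The 7 genes with an exact box had log2 ratios from -3.03 (Acta1) to 0.82 (Myl9), with Fhl1 at -0.77, Srf at -0.27, Ldb3 at -0.17, Vcl at 0.00 and Myl6 at 0.23 between them. Of these genes, only Acta1 passed 2-fold. The ends of the list were Tnni2, at -3.04 and without a window, and Oxtr, at 4.52 and with no box of either kind in its window.

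**Figure D3:**
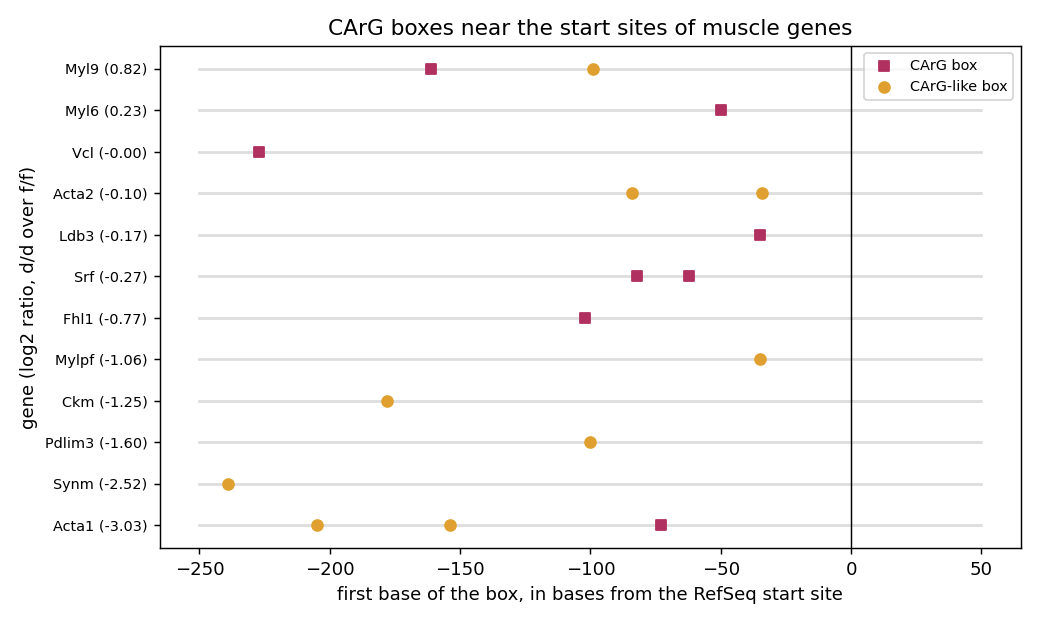
Position of CArG boxes (squares) and CArG-like boxes (circles) in bases from the RefSeq start site, for the 12 genes with either, ordered by log2 ratio (in brackets). Exact boxes occur from Acta1, at -3.03, to Myl9, at 0.82, and all boxes start before the start site.

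The 5 skeletal muscle genes were all at least 2-fold lower in d/d, against 8.28% of all genes. Ckm reached 1 FPKM in f/f alone and so had to be lower. Acta1, skeletal alpha-actin (chr8:123891769-123894751, minus strand), was 115 FPKM in f/f and 13.2 FPKM in d/d, 8.74-fold lower. Tnni2, the fast troponin I that holds the thin filament off at low calcium (chr7:142441808-142444410, plus strand), was 92.7 FPKM in f/f and 10.4 FPKM in d/d, 8.90-fold lower. At or below the ratio of Tnni2 lay 114 of the 16263 genes, and at or below that of Acta1 115. Tnnt3, the fast troponin T (chr7:142498836-142516009, plus strand), which lies close to Tnni2 on the same chromosome, was 7.51 FPKM in f/f and 2.79 FPKM in d/d. Mylpf, the fast regulatory light chain, was 5.31 FPKM in f/f and 2.03 FPKM in d/d. Ckm, the muscle creatine kinase, was 1.66 FPKM in f/f and 0.119 FPKM in d/d, about 80.7 and 6.81 fragments over its longest coding transcript, too few in d/d for a firm fold. With a pseudocount of 5, Tnnt3 (-0.68), Mylpf (-0.55) and Ckm (-0.38) no longer passed 2-fold. Mylpf also fell just short with FPKM rescaled to a common smaller sum and with ratios centred on reference genes (-0.97). Levels of Acta1 and Tnni2 were thus far above those of the other 3.

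The rest of the fast-muscle programme was not present at a matching level. Of 37 other skeletal muscle genes, 25 were under 1 FPKM in both libraries, and 8 of these were listed at 0 in both. Of the 12 at 1 FPKM or more, 5, Trdn among them, reached it in f/f alone and so had to be lower in d/d. Among these 12, 3 were at least 2-fold lower and none higher, against 8.28% and 10.2% of all genes. The 3 were Tnnt1, the slow troponin T, at 29.7 FPKM in f/f and 8.90 FPKM in d/d, Pygm, muscle glycogen phosphorylase, at 11.2 and 4.45 FPKM, and Trdn, triadin of the calcium store, at 1.55 and 0.146 FPKM. The 8 skeletal markers summed to 5.08 FPKM in f/f and 1.77 FPKM in d/d, below the 92.7 and 10.4 FPKM of Tnni2 alone. Acta1 and Tnni2 thus stood at their levels with the defining skeletal myosin genes listed at 0.

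A wider list of 66 contraction and calcium genes was described in the same way. Of 63 at 1 FPKM or more, 11 lay past 2-fold on the lower side, 1 on the higher side and 51 within it, with 48 ratios below 0 and a median of -0.33. Over all genes, 8.28% were at least 2-fold lower, 10.2% at least 2-fold higher and 50.8% below 0. Of the 63, 3 reached 1 FPKM in f/f alone and 1 in d/d alone, which fixed their direction. Among the 6 with the largest ratios in size, 3 encode enzymes that make or break down cyclic GMP. The subunits of soluble guanylate cyclase, which makes cyclic GMP in response to nitric oxide, were 10.7 FPKM in f/f and 2.34 FPKM in d/d for Gucy1a1, and 11.5 and 2.94 FPKM for Gucy1b1. Pde5a, the phosphodiesterase that breaks cyclic GMP down, was 15.2 FPKM in f/f and 5.45 FPKM in d/d. Mrvi1, the kinase's substrate at the calcium store, was on the other side, at 34.3 FPKM in f/f and 49.1 FPKM in d/d. The channels Kcnma1 and Itpr1 and the calcium pump Atp2a2, from the same list, were near level, with log2 ratios of -0.01, 0.05 and 0.17 (these and Mrvi1 named after their values were seen).

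Ptgfr, Chrm3 and Ednra, receptors of contraction from this wider list, did not share the direction of Oxtr. Ptgfr, the prostaglandin F receptor, was 5.31 FPKM in f/f and 1.30 FPKM in d/d. Chrm3, a muscarinic receptor, was 1.82 and 0.379 FPKM. It reached 1 FPKM in f/f alone, which fixed its direction. Ednra, an endothelin receptor, was 24.9 FPKM in f/f and 13.2 FPKM in d/d, short of 2-fold (Chrm3 and Ednra named after their values were seen). Heyl, a Notch target of vessel walls, was 7.12 FPKM in f/f and 1.70 FPKM in d/d. Sgcd, Cav1, Cnn3 and Foxf1 were also at least 2-fold lower. The 1 higher gene was Myl12b, a regulatory light chain of non-muscle myosin, at 99.2 FPKM in f/f and 236 FPKM in d/d. Its neighbour and near copy Myl12a was 231 FPKM in f/f and 259 FPKM in d/d, and single values of this pair are uncertain (these 6 genes named after their values were seen).

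Markers of several other uterine cell types also differed between the libraries. Over all genes, 8.28% were at least 2-fold lower, 10.2% at least 2-fold higher and 50.8% below 0. All 9 pericyte genes were present, 8 with ratios below 0 and 2 past 2-fold, with a median of -0.64. Rgs5, a regulator of G protein signals in vessel wall cells, was 186 FPKM in f/f and 35.9 FPKM in d/d, and the channel subunit Abcc9 was 11.3 and 3.67 FPKM. All 9 endothelial genes had ratios below 0 (median -0.96) and so did all 10 stromal genes (median -1.78). The stromal list was split. Dcn (-0.17), Lum (-0.16), Col1a1 (-0.29) and Col1a2 (-0.13) were near level, and the other 6 were at least 2-fold lower. The summed FPKM of the 4 endothelial markers (Pecam1, Cdh5, Kdr and Tek) was 197 against 90.9 (f/f against d/d). That of the 5 stromal markers (Pdgfra, Dcn, Lum, Col1a1 and Hand2) was 2187 against 1743. Epithelial genes ran the other way, with a median of 2.69 over 10 genes. Of 8 leukocyte genes, 4 were at least 2-fold higher and 1 lower, with the macrophage gene Lyz2 at 334 FPKM in f/f and 886 FPKM in d/d and the killer cell gene Nkg7 at 56.3 and 2.42 FPKM. The part of tissue make-up in the muscle values was not tested. The 14 reference genes had a median of -0.09, with none past 2-fold.

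**Figure D4:**
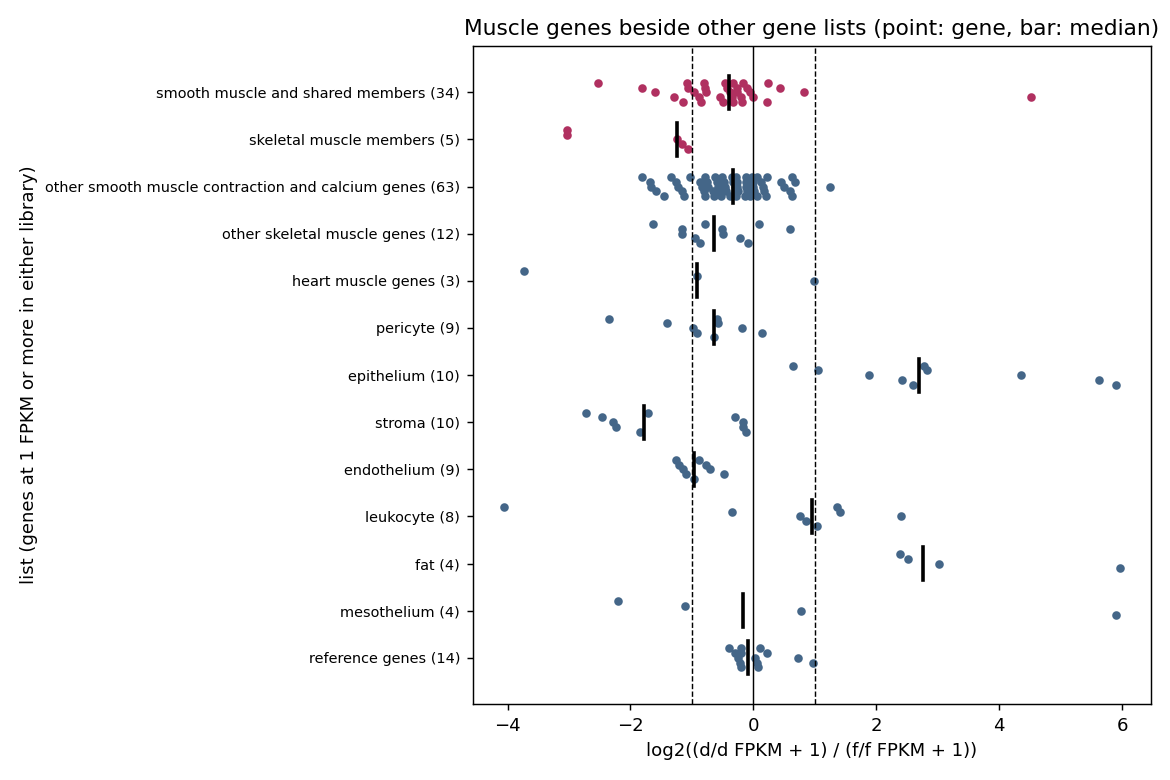
Log2 ratio of (FPKM + 1), d/d over f/f, for each gene at 1 FPKM or more (points) in the muscle genes (upper 2 rows) and other lists, with a bar at the median and dashed lines at 2-fold. The smooth muscle and shared genes centre at -0.40 and the skeletal ones at -1.25, between the stromal median of -1.78 and the epithelial median of 2.69. Of the 10 stromal genes, 4 did not pass 2-fold.

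Abundant genes passed 2-fold less often than genes at large, so the abundant contractile genes were also set beside genes of like level. Of 1435 genes with a mean of 100 FPKM or more, 4.88% were at least 2-fold lower and 7.80% at least 2-fold higher, with a median of -0.02. Of the 18 contractile genes in that range, 3 were lower (Actg2, Des and Pdlim3) and 0 higher, with a median of -0.44. Without the 5 skeletal genes, 7 of 34 were at least 2-fold lower and the median was -0.40.

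**Figure D5:**
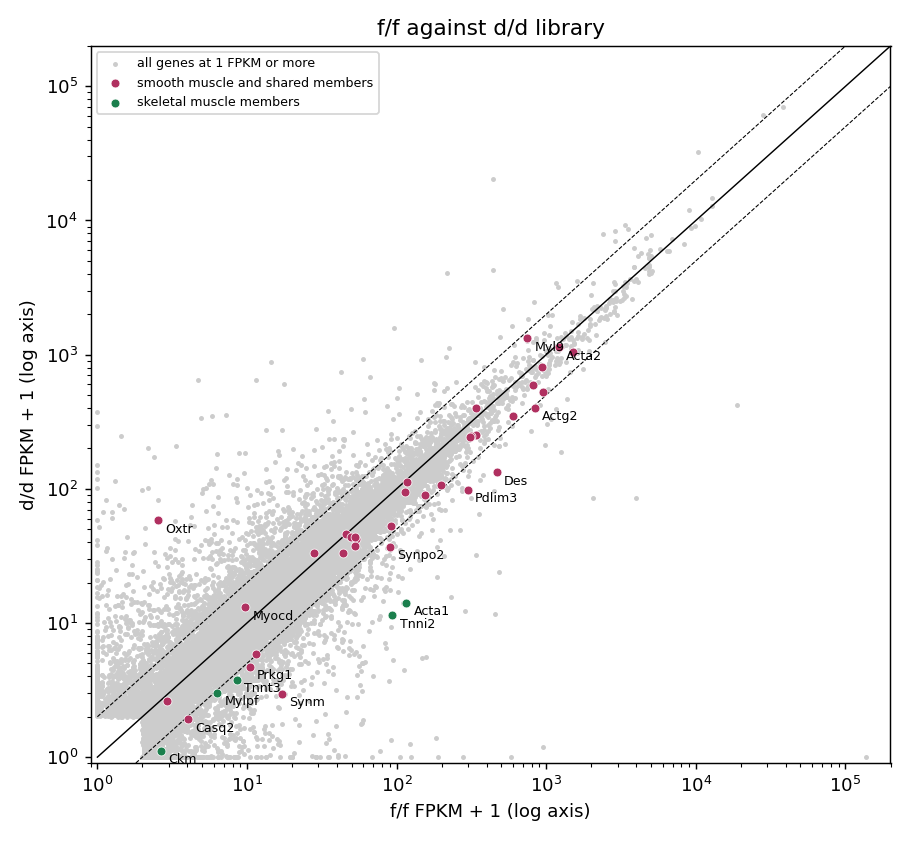
f/f against d/d FPKM + 1 on log axes for all 16263 genes (grey), the 34 smooth muscle and shared genes (red) and the 5 skeletal genes (green), with a solid line of equality and dashed lines at 2-fold. Most red points lie between the lines and just under equality, Oxtr lies far above, and the green points lie on or below the lower dashed line.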

How the data were processed

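Whole-uterus RNA (TRIzol) was sequenced as TruSeq RNA libraries, 1 per genotype, per the labels' protocols. The deposited files hold FPKM per gene as the authors computed them. HISAT2 2.2.1, Cufflinks 2.2.1 and mm10 are listed in the submitters' processing notes. Annotation release, strandedness and read length are not given in the sources here. No counts were used, so depth was estimated from the steps of low values in genes with 1 long transcript: 75.2% of 783 such values in f/f and 71.9% of 804 in d/d lay within 0.1 of a whole number of fragments. Those depths are approximate and served only for the fragment numbers given beside Oxtr and Ckm.

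Of 55483 rows, 120 that repeat a symbol were summed. The log2 ratio used a pseudocount of 1, which understates changes of low genes; genes needed 1 FPKM in either library, and 2-fold was the line. No sample columns were left unused. All members are described by role; from each other list, up to 6 genes past 2-fold, or the 3 most abundant, could be named; 1 such gene is not reported here. Members and lists were chosen with earlier results of these data known. Positions come from GENCODE M21, which held 55137 of 55483 gene IDs, and start windows from RefSeq on GRCm38.p6. Scripts (Python 3.11.15, pandas 2.3.3, Biopython 1.88) were tested on simulated data. Scaling, pseudocount, filter, row handling and fold were varied.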

Additional observations from a re-analysis of the deposited data

How the results depend on the processing

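No paired analysis was possible because each genotype has 1 library, and no library could be left out. The count of 12 contractile genes at least 2-fold lower ranged from 9 to 13 under the 5 scalings, the smaller pseudocounts and the filters. The median ranged from -0.58 to -0.40, and 1 gene was higher in each. The share of all genes at least 2-fold lower moved as well. It was 7.15% when centred on reference genes, with 9 contractile genes lower, and 11.7% with a pseudocount of 0.1, with 13. Without a filter on low values it was 2.43%, with 12. With a pseudocount of 5, 7 were lower (Prkg1, Casq2, Tnnt3, Mylpf and Ckm no longer passed), and over all genes 869 were higher and 539 lower in place of 1652 and 1346. With 1.5-fold, 2 were higher, and over all genes 3063 were higher and 2888 lower. Chosen after seeing the data, leaving out the 5 skeletal genes left 7 lower, and leaving out Oxtr left 0 higher. Of 426 single-gene ratios recomputed, 6 moved by over 1.5 times, all with another pseudocount: Oxtr, 5.13 and 3.25 with 0.1 and 5, Ckm with both (-0.38 with 5), Synm, -1.60 with 5, and Casq2, -0.44 with 5. Centred on the reference genes, Actg2 (-0.97), Casq2 (-0.99) and Mylpf (-0.97) fell short of 2-fold, and Vcl (0.09) and Actn1 (0.02) changed sign. With FPKM rescaled to a common smaller sum, which also makes the pseudocount weigh more, Casq2 (-0.98) and Mylpf fell short. Pln passed with pseudocounts of 0.1 (-1.08) and 0.5 (-1.03) and upper quartile scaling (-1.05). A change was called moved at 1.5 times because no spread between animals exists.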

Other observations

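Genes best known from heart muscle were not part of the contractile list and were mostly low. Of 9, 6 were under 1 FPKM in both libraries, among them the heavy chain genes Myh6 and Myh7. Nppa, which encodes atrial natriuretic peptide, a hormone that raises cyclic GMP, reached 12.3 FPKM in the f/f library but was listed at 0 in the other. Tnnt2, the cardiac troponin T gene, was 10.2 FPKM in f/f and 21.1 FPKM in d/d, short of 2-fold on the FPKM + 1 scale, at a log2 ratio of 0.98. The troponin T genes thus differed in sign, with Tnnt1 and Tnnt3 lower and Tnnt2 higher (Tnnt2 named after its values were seen).

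Of 7 fat-cell genes, 4 were at 1 FPKM or more and all 4 passed 2-fold on the higher side, against 10.2% of all genes, and the other 3 (Plin1, Lep and Plin4) were under 1 FPKM in both libraries. Of the 4, 3 reached 1 FPKM in d/d alone and so had to differ. Fabp4 was at 2.67 FPKM in f/f and 28.9 FPKM in d/d, and Cfd at 0.0867 and 66.6 FPKM. Mesothelial genes of the outer uterine surface were mixed. The markers Msln, Upk3b and Lrrn4 summed to 3.13 FPKM in f/f and 2.54 FPKM in d/d. On the longer list, Wt1, which stroma also expresses, was 84.3 FPKM in f/f and 17.5 FPKM in d/d, and Krt19, also epithelial, was 4.87 and 348 FPKM. The bearing of these tissues on the muscle genes was not tested.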
